A study of Arabidopsis thaliana with 4 samples.

Results

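The plastid genome of Arabidopsis encodes 11 subunits of the NADH dehydrogenase-like (NDH) complex, named ndhA to ndhK, and 10 of these genes were described here in wild type (WT) and in vip3 mutants. A gene was included when the array annotation gave a probe set a single gene entry with an ndh symbol, which was the case for ndhA and for ndhC to ndhK. The probe set for ndhB is listed for the 2 copies of that gene in the plastid genome and was therefore not counted. The 10 genes were part of 22746 probe sets tested and of 69 that were named for a single plastid-encoded gene. RNA came from seedlings at 14 d. VIP3 is a subunit of the plant Paf1 complex (Paf1C), which travels with nuclear RNA polymerase II. The mutants carried the vip3-1 allele, and the study describes its vip3 mutants as homozygous for a null allele. No mutation or transgene is named for WT, and no treatment is named for either genotype. Each genotype was measured on 2 Affymetrix ATH1 arrays, and each array carried a pool of 3 samples raised separately, with over 100 plants in each sample. Arrays of the same genotype therefore differed by what separates such pools and by the processing of each array.

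The NDH complex sits in the thylakoid membrane next to photosystem I. It passes electrons from reduced ferredoxin to plastoquinone, a route of cyclic electron flow that adds to the proton gradient used for ATP synthesis. It is related to respiratory complex I and has a membrane arm and an arm that reaches into the stroma. Genes for its subunits are divided between the plastid and the nucleus. The plastid members are transcribed by plastid RNA polymerases and not by RNA polymerase II, mostly as long precursors that hold several genes and are cut, spliced and edited by proteins imported from the cytosol.

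Array signals in the deposited table were comparable in overall level, with medians between 172.1 and 175.7 per array. Log2 signals correlated across probe sets at r = 0.953 between the WT arrays and r = 0.95 between the vip3 arrays, against 0.941 to 0.946 between genotypes, and probe sets are not independent replicates. The labels give no tissue beyond whole seedlings. Of genes for green tissue, 4 of 13 listed ones had a named probe set (RCA, PSAE-1, LHCB4.1 and LHCB4.2), and their summed signal was 75427 to 79117.5 in WT and 75168.7 to 82662 in vip3. For root, 3 of 7 listed genes were named, and the sum of PYK10, EXPA7 and EXPA18 was 4867.9 and 5788.3 in WT, against 2741.1 and 3327.1 in vip3. Sums of linear signals are set mostly by the brightest genes, and the single genes of these lists were not compared. The part of the difference in the root sum in the changes described below was not tested. No probe set was named for VIP3 itself in the annotation used here, so the genotype labels were not checked against its transcript. The single named gene of 4 listed for anther and pollen, AMS, had signals between 3.5 and 17.9.

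The array signal of ndhH was higher in vip3. NdhH is a subunit of the stromal arm, and its gene (locus ArthCp080) lies near the start of the largest plastid ndh transcription unit. The signal of its probe set was 1073.4 and 1074.7 on the WT arrays and 1627.5 and 1869.3 on the vip3 arrays. Both vip3 values were thus above both WT values, and the distance between the genotypes was larger than that between the 2 vip3 arrays. The mean was 1074.1 ± 0.919 (SD, n = 2) in WT and 1748.4 ± 171 in vip3. In limma, fitted over all probe sets, the log2 fold change was 0.70 ± 0.085 (SE), with a 95% interval from 0.50 to 0.90 and an adjusted p = 0.00323. This corresponded to 1.62 times the WT level (interval 1.41 to 1.86). For a single gene, 2 arrays against 2 allow no two-sided exact permutation p below 0.333, and the p-values given here rest on the variance that limma shares between probe sets. The SD of 0.919 among the WT arrays rests on 2 nearly equal values and entered the test only after this sharing. When the prior variance was held constant over signal levels, the log2 fold change kept its value and the adjusted p was 0.212. When any single array was omitted, ndhH kept an adjusted p between 0.0115 and 0.0477, the latter without vip3 replicate 2. With an array omitted, its genotype was left with a single array that was assumed to vary like the other genotype, so that without a vip3 array the spread came from the WT arrays and the sharing between probe sets.

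**Figure D1:**
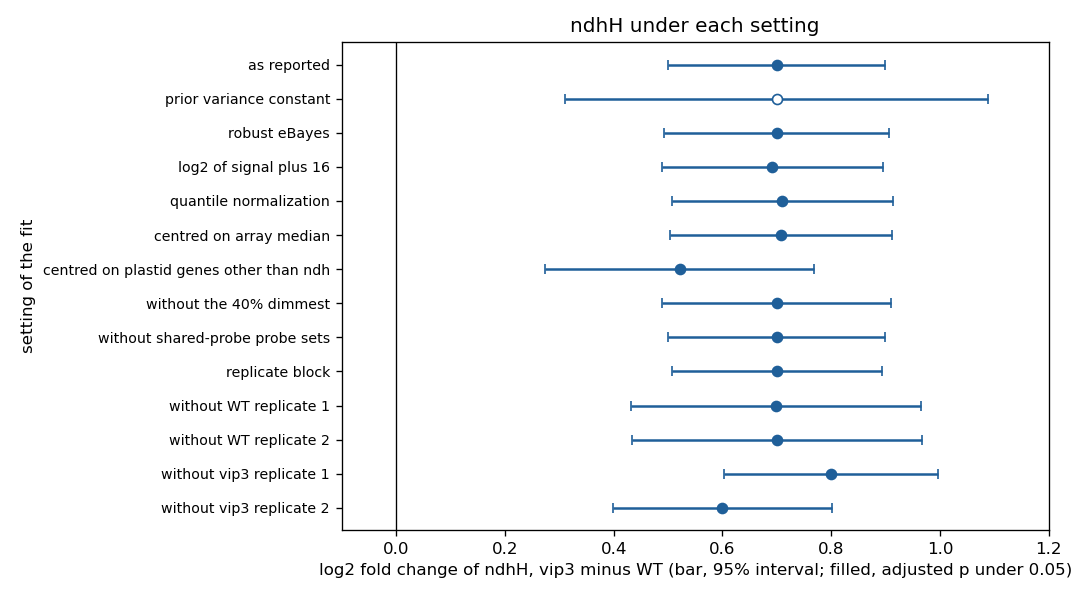
The log2 fold change of ndhH (x axis, vip3 minus WT, with its 95% interval) under each setting of the fit (y axis), with filled points where the adjusted p was under 0.05. Estimates lay between 0.52 and 0.80, and the interval was above 0 throughout, but the point for a constant prior variance is open (adjusted p = 0.212).

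On the deposited scale all 10 ndh genes had a log2 fold change above 0 (7 of 10 after centring on other plastid genes), and 1 of them, ndhH, was called at an adjusted p under 0.05. Over all probe sets, 4.73% were called higher in vip3, 5.07% were called lower and 50.1% had a log2 fold change above 0. Among the 3805 probe sets with a mean signal of at least 899.9, a level that all ndh genes except ndhF reached, 12.2% were called higher, so that 1 of 10 was close to the share of bright probe sets. At an unadjusted p under 0.05, 4 of the 10 were higher (ndhH, ndhA, ndhG and ndhK), where 11.4% of all probe sets were. In 7 of the 10, both vip3 arrays lay above both WT arrays, which held for 25.9% of all probe sets and for 37.4% of the bright ones. In the other 3 genes, ndhD, ndhE and ndhJ, the genotypes overlapped, and in no ndh gene were both vip3 arrays below both WT arrays, which was the case for 26.3% of all probe sets. At the study's own thresholds, an unadjusted p under 0.001 and a change of 2-fold, none of the 10 passed, where 1.56% of all probe sets did. The median log2 fold change was 0.26 for the 10 ndh genes, against 0.00 for all probe sets. Signals of genes that lie on the same RNA precursors and in the same pools are not independent, and more plastids, more plastid RNA per cell and a change of single transcripts cannot be told apart in RNA from whole tissue.

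**Figure D2:**
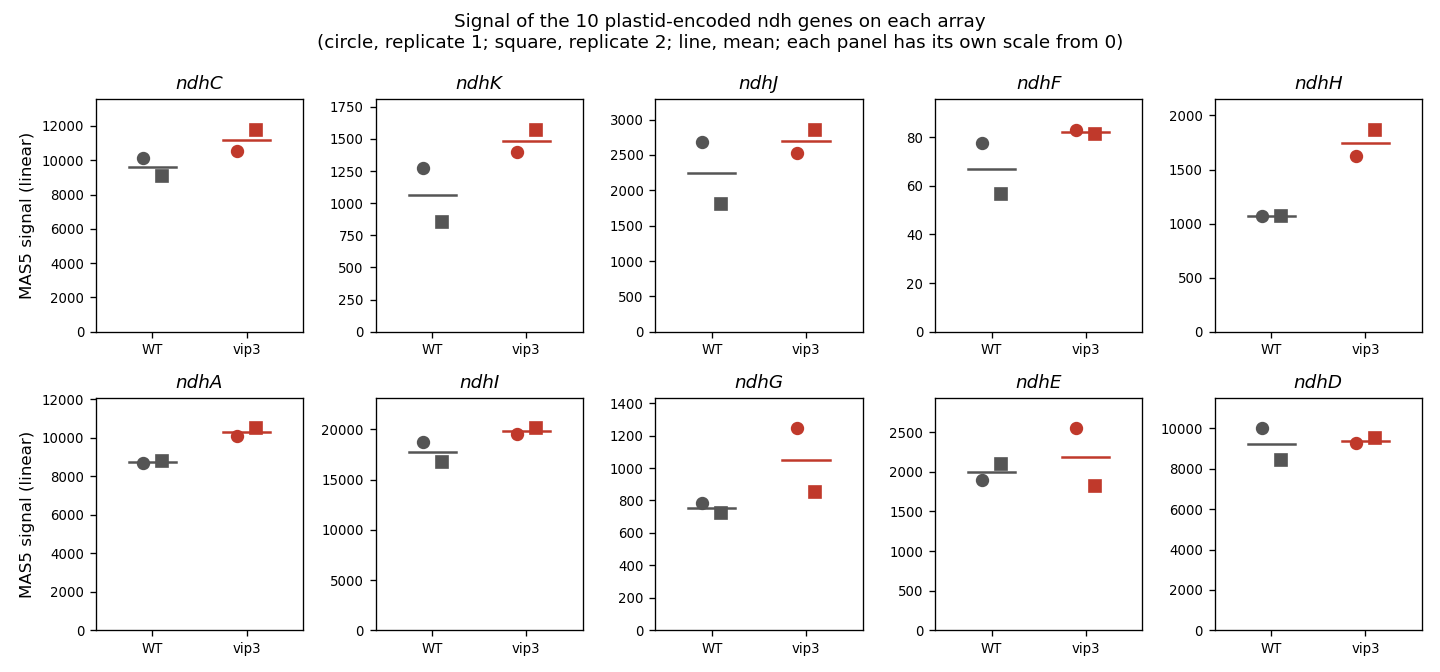
The MAS5 signal (y axis, linear, from 0 in each panel) of the 10 ndh genes on the 2 WT (grey) and 2 vip3 (red) arrays, with circles for replicate 1, squares for replicate 2 and lines for means. In ndhH the WT points coincide at 1073.4 and 1074.7 and the vip3 points lie at 1627.5 and 1869.3, whereas in ndhD, ndhE and ndhJ the points of the genotypes overlap.

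Of the stromal arm, 4 subunits are plastid-encoded, and their genes ndhH, ndhI, ndhJ and ndhK had a median log2 fold change of 0.40. NdhK and NdhI are subunits that carry iron-sulphur clusters. The signal of ndhK was 1273 and 856.5 in WT, against 1401.4 and 1572.4 in vip3. Both vip3 values were higher, but the WT arrays lay farther apart than the vip3 arrays. Its log2 fold change of 0.51 ± 0.17 (SE, interval 0.11 to 0.90) had an adjusted p = 0.112 in limma, and this value depended on the WT array kept. Without WT replicate 1 the log2 fold change of ndhK was 0.79 (adjusted p = 0.00717), and without WT replicate 2 it was 0.22 (adjusted p = 0.33). For ndhI, the signal was 18755.8 and 16763.3 in WT, against 19505 and 20122.6 in vip3. The groups did not overlap, and the log2 fold change was 0.16 ± 0.095 (interval -0.06 to 0.38, adjusted p = 0.374 in limma). For ndhJ, which encodes a further subunit of this arm, the signal was 2685.1 and 1804 in WT, against 2533.7 and 2859.1 in vip3. The first WT array was within the range of the vip3 arrays. The log2 fold change was 0.29 ± 0.17 (adjusted p = 0.362), and for ndhJ too it depended on the WT array kept, with 0.58 (adjusted p = 0.0245) without WT replicate 1 and 0.00 (adjusted p = 0.994) without WT replicate 2.

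Of the membrane arm, 6 subunits were measured, and ndhA, ndhC, ndhD, ndhE, ndhF and ndhG had a median log2 fold change of 0.23, with none called. NdhA holds the membrane arm to the stromal arm. The signal of ndhA was 8700.5 and 8787.5 in WT, against 10076.7 and 10501.4 in vip3. As in ndhH, both WT arrays were close together and both vip3 arrays were above them, but the difference was smaller, at 0.23 ± 0.075 on the log2 scale (SE, interval 0.06 to 0.41, adjusted p = 0.102 in limma). It had an adjusted p of 0.0457 when the dimmest 40% of probe sets were left out, which changed the number of tests and the variance trend. NdhD and NdhF are large membrane subunits that resemble ion antiporters. The signal of ndhD was 10008.5 and 8440.6 in WT, against 9274.7 and 9504.6 in vip3, with the vip3 arrays between the WT arrays. Its log2 fold change was 0.03 ± 0.097 (interval -0.20 to 0.26, adjusted p = 0.903). The probe set for ndhF gave low signals, at 77.7 and 56.5 in WT, against 83.1 and 81.4 in vip3. Its log2 fold change of 0.31 ± 0.35 had the widest interval among the 10, from -0.50 to 1.12.

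The small membrane subunits NdhC, NdhE and NdhG gave 3 different patterns. The signal of ndhC was 10145.5 and 9083.2 in WT, against 10547.9 and 11782.8 in vip3. The groups were separate by a narrow margin, and limma gave 0.22 ± 0.095 (SE) on the log2 scale, with an adjusted p of 0.221. The signal of ndhG was 783 and 721.4 in WT, against 1245.7 and 849.5 in vip3. The higher vip3 mean was due mostly to replicate 1, and its log2 fold change of 0.45 ± 0.16 had an adjusted p of 0.142, or 0.0385 with the replicate number as a block. The signal of ndhE was 1895.1 and 2098.8 in WT, against 2550.8 and 1816.6 in vip3. Its vip3 arrays lay on either side of the WT arrays, and the log2 fold change was 0.11 ± 0.15, turning to -0.13 without vip3 replicate 1.

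The changes were then set against the position of each gene in its transcription unit. The larger unit runs from rps15, for a protein of the small ribosomal subunit, through ndhH, ndhA, ndhI, ndhG and ndhE to psaC, for an iron-sulphur subunit of photosystem I, and ends with ndhD. The order of these genes along the plastid genome matched their order in RefSeq for TAIR10.1. The extent of the units and the direction of transcription are textbook knowledge, since the RefSeq table used gives no strand, and whether a probe set read the RNA of a single gene, the precursor or both is not known from the sources used here. Both genes at its start were called, rps15 with signals of 993.3 and 851.5 in WT, against 1206.3 and 1450.2 in vip3 (log2 fold change 0.52 ± 0.11 SE, adjusted p = 0.03 in limma) and ndhH with 0.70. No gene behind them was called. The log2 fold changes of ndhA, ndhI, ndhG and ndhE were 0.23, 0.16, 0.45 and 0.11, that of psaC was 0.29 ± 0.081 (signals of 1786.2 and 1800.5 in WT, against 2059.5 and 2342.9 in vip3, adjusted p = 0.0666), and that of ndhD at the end was 0.03. The values thus did not fall step by step, since ndhG and psaC lay above the genes in front of them. Signal level also differed along the unit. WT means were 922.4 for rps15, 1074.1 for ndhH and 752.2 for ndhG, which had the highest log2 fold changes of the unit. They were 1997 for ndhE, 1793.3 for psaC, and 8744, 17759.6 and 9224.5 for ndhA, ndhI and ndhD. The part of signal level in the changes by position was not tested. The 6 ndh genes of this unit had a median of 0.20. Like ndhH, rps15 did not pass with a constant prior variance (adjusted p = 0.3). It also did not pass with log2 of the signal plus 16 (adjusted p = 0.0533), after centring on other plastid genes (0.0796), or without WT replicate 2 (0.117), vip3 replicate 1 (0.0831) or vip3 replicate 2 (0.19).

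In the shorter unit, ndhC, ndhK and ndhJ follow each other in this order, and their log2 fold changes were 0.22, 0.51 and 0.29, with the highest value in the middle. The gene ndhF, which is transcribed apart from the other ndh genes, had 0.31. The interval of ndhF took in the values of all other members, and the medians of the units, 0.29 for the shorter and 0.20 for the larger, were not tested against each other.

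**Figure D3:**
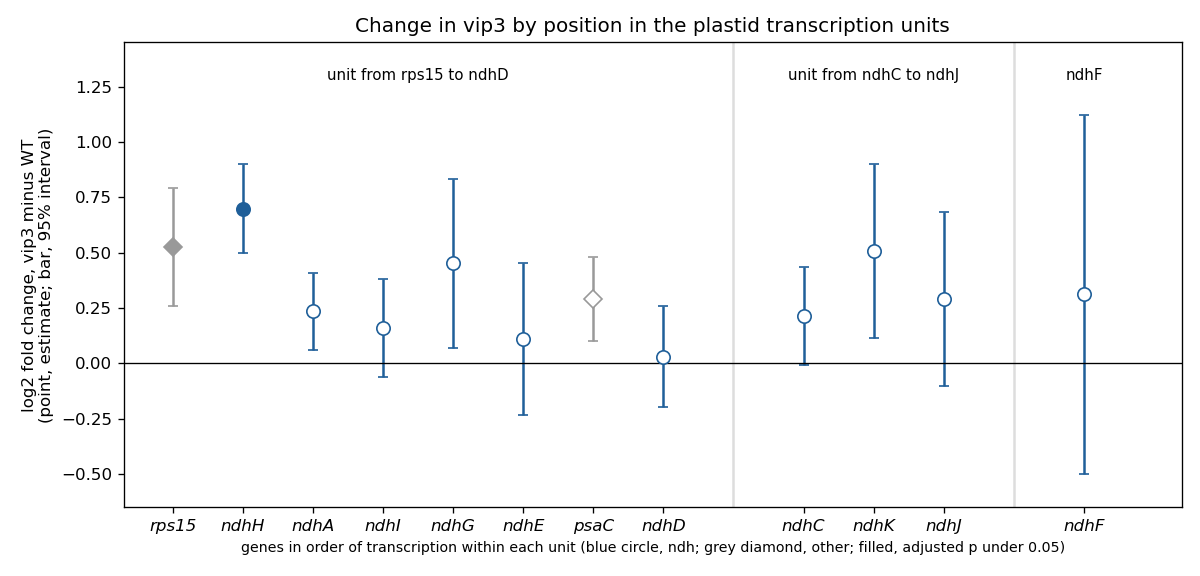
The log2 fold change (y axis, vip3 minus WT, with 95% intervals) of the ndh genes (blue circles) and of rps15 and psaC (grey diamonds) in the order of transcription within each unit (x axis), filled where the adjusted p was under 0.05. The filled points are rps15 (0.52) and ndhH (0.70) at the start of the largest unit, and ndhD at its end is at 0.03.

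The signal of ndhH was also set against that of other genes on the same array. This removes a difference common to plastid transcripts only where all probe sets respond to it in equal proportion. Mean signals of the ndh genes ran from 74.67 to 18790, and such an equal response was not tested. Signals of different probe sets are not on one scale, so that only the change of such a ratio between arrays has a meaning. The log2 signal of ndhH minus the mean of the other 9 ndh genes was -1.31 and -1.07 in WT, against -0.87 and -0.62 in vip3, a difference of 0.44 between the genotypes (exact permutation test, two-sided, p = 0.333, the smallest possible). Against the mean of the 59 other plastid-encoded genes it was -1.98 and -1.77 in WT, against -1.39 and -1.38 in vip3, a difference of 0.49. Taken gene by gene, the ratio of ndhH to another ndh gene was higher on both vip3 arrays than on both WT arrays for 7 of the other 9. The exceptions were ndhK and ndhG, where the ratio overlapped between the genotypes. Margins were narrow for ndhF, with log2 ratios of 3.79 and 4.25 in WT, against 4.29 and 4.52 in vip3. They were also narrow for ndhJ, with -1.32 and -0.75 in WT, against -0.64 and -0.61 in vip3. The share of all probe sets against which the ratio of ndhH separates in this way was not counted. For ndhA, which lies directly behind ndhH, the log2 ratio was -3.02 and -3.03 in WT, against -2.63 and -2.49 in vip3. For rps15, directly in front, it was 0.11 and 0.34 in WT, against 0.43 and 0.37 in vip3, so that the arrays were separate by a small margin only. As ndhH was singled out with its values known, these ratios are a description.

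The other plastid-encoded genes were compared next. Of 59 such genes, 4 were called higher (6.78%, against 4.73% of all and 12.2% of bright probe sets) and none lower in limma, and 52 had a log2 fold change above 0, with a median of 0.17. In 27 of them (45.8%, against 25.9% of all and 37.4% of bright probe sets) both vip3 arrays were above both WT arrays, and in none were both below. The mean log2 signal of the 59 genes was 12.046 and 11.839 in WT, against 12.055 and 12.251 in vip3. Replicate 1 of each genotype thus had nearly equal means, and the genotypes were apart mainly in replicate 2. Among the 69 plastid-encoded genes, ndhH had the second-highest log2 fold change, after rbcL, and the lowest p-value. This rank depended on single arrays. Of the genes named here, besides rbcL, rpoC2 (0.82), ndhK (0.79) and atpI (0.73) were above ndhH (0.70) without WT replicate 1. Without vip3 replicate 2, ndhG (0.73) was above ndhH (0.60). Without vip3 replicate 1, rpoC2 (0.91) and atpI (0.97) were above ndhH (0.80). The large-subunit gene of Rubisco, rbcL, had signals of 1557.3 and 1207.1 in WT, against 2648.1 and 3315.2 in vip3 (log2 fold change 1.11 ± 0.14, adjusted p = 0.00377; 0.0789 without vip3 replicate 2). It stood at the top of the list of 33 photosynthesis genes, which had a median of 0.16 and 1 call, and psbN stood at the bottom with -0.21 ± 0.19. Of 19 genes for the plastid ribosome and RNA polymerase, with a median of 0.17, 3 were called, and the extremes were rpoC2, for a subunit of the plastid-encoded polymerase, with 0.68 ± 0.15 and rps18 with -0.05 ± 0.1. In the remaining 7 genes, from ccsA with -0.01 to accD with 0.29, none was called.

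When each array was centred on the other plastid-encoded genes in place of its overall level, the median of all probe sets shifted to -0.18 and that of the ndh genes to 0.08. The log2 fold change of ndhH was then 0.52 (adjusted p = 0.0127), and ndhD, ndhE and ndhI turned to -0.15, -0.07 and -0.02. On this scale 18.4% of the called probe sets were higher in vip3, against 48.3% on the deposited scale. The array control for 25S ribosomal RNA read 148 and 137.6 in WT, against 223.5 and 320.9 in vip3. The control for 5S ribosomal RNA overlapped between the genotypes, with 114.8 and 103.4 in WT, against 101 and 135.9 in vip3. A relation of these controls to the values of plastid transcripts was not tested.

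**Figure D4:**
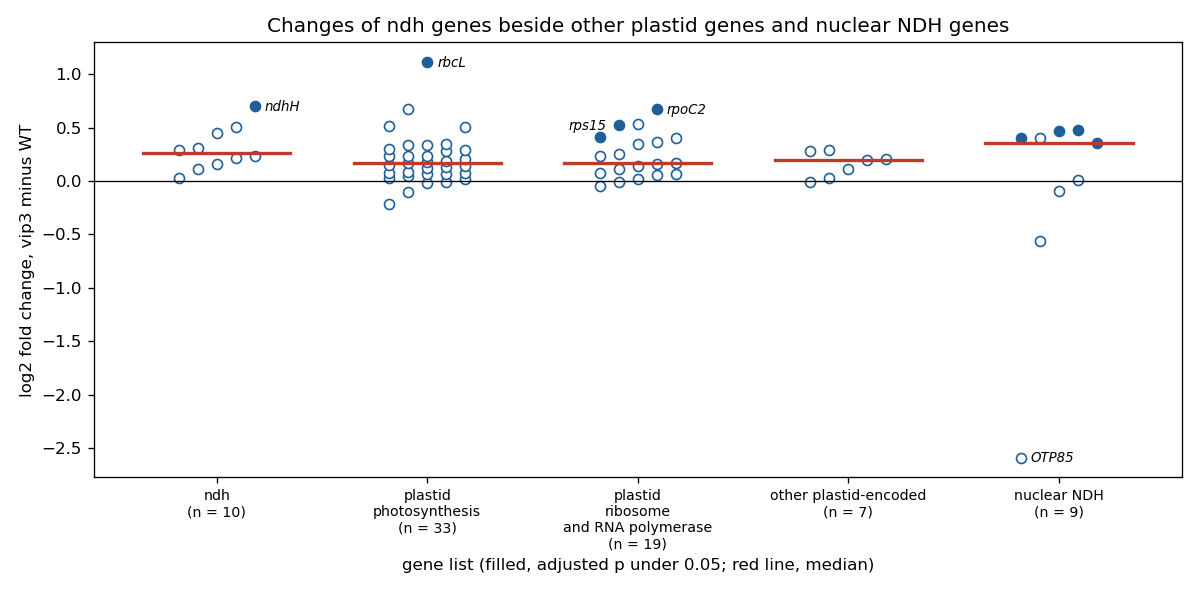
The log2 fold change (y axis, vip3 minus WT) of each gene in 5 lists (x axis), filled where the adjusted p was under 0.05, with red lines for medians. The ndh genes lie between 0.03 and 0.70 with a median of 0.26, the other plastid lists have medians from 0.16 to 0.20, and OTP85 is the lowest point of the nuclear list at -2.59.

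Nuclear genes for the same complex were compared next. Of 33 listed nuclear genes for subunits, assembly factors and RNA-processing factors of NDH, 9 had a named probe set. Of these, 4 were called, all of them higher in vip3. Among all probe sets, 9.8% were called in either direction and 4.73% were called higher. Of those with a mean signal of at least 899.9, 12.2% were called higher. The median of the 9 was 0.35. NdhL, a membrane protein of the complex, had signals of 2580.6 and 2409.1 in WT, against 3158 and 3218 in vip3 (log2 fold change 0.35 ± 0.07 SE, adjusted p = 0.0208 in limma). NdhN, a subunit of the stromal arm, rose from 1830.7 and 1762.4 to 2336 and 2420.9 (0.40 ± 0.068, adjusted p = 0.0111). NdhS, which takes part in the binding of ferredoxin, had 4055.6 and 3429.3 in WT, against 5288.8 and 4613.9 in vip3, and with an adjusted p = 0.0517 it was just above the threshold. In all 3 subunit genes both vip3 arrays were above both WT arrays, as in 25.9% of all and 37.4% of bright probe sets. Of the 9 genes, 5 were separate in this direction. In 2, the editing factors CRR22 and OTP85, both vip3 arrays were below both WT arrays, as in 26.3% of all probe sets. AT2G04039, which was listed from general knowledge and has no NDH name in the RefSeq table, rose from 1733.7 and 1645 to 2499.9 and 2197.4 (0.47 ± 0.084, adjusted p = 0.0136).

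The 5 measured factors that edit plastid RNA did not move together. CRR21, a pentatricopeptide repeat protein needed to edit the ndhD transcript, rose from 535.4 and 548.9 to 750.1 and 744.8 (log2 fold change 0.46 ± 0.083 SE, adjusted p = 0.0145 in limma). CRR22 and CRR28, which each act on several plastid transcripts, had log2 fold changes of -0.56 ± 0.26 and -0.09 ± 0.22, and OTP84 had 0.01 ± 0.15. OTP85 had low signals, 90.4 and 70.3 in WT, against 37.5 and 4.7 in vip3, and its log2 fold change of -2.59 ± 0.95 had an adjusted p of 0.147. These 4 calls were not stable to the choice of arrays and scaling. Without WT replicate 1, NdhN, AT2G04039 and NdhS were called, and without WT replicate 2, CRR21 alone. None of the 9 genes was called without vip3 replicate 1, without vip3 replicate 2, with a constant prior variance or after centring on other plastid genes, where NdhL, NdhN, AT2G04039 and CRR21 had log2 fold changes of 0.18, 0.23, 0.29 and 0.29. Without vip3 replicate 1 these were 0.37, 0.43, 0.38 and 0.46, and without vip3 replicate 2 they were 0.34, 0.38, 0.57 and 0.47, while the calls over all probe sets fell from 2229 to 442 and 450.

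The genes with the pattern most like that of ndhH were found by the Euclidean distance of log2 signals over the 4 arrays, each gene centred on its own mean. Among 7231 named probe sets with a mean signal of at least 100, these were AT5G49990 with a distance of 0.0444, AT1G65500 with 0.0635 and the subtilase gene SBT1.3 with 0.0783. The log2 fold changes of these genes were 0.73, 0.72 and 0.63. Among the other 68 plastid-encoded genes the most similar were rps15, the neighbour of ndhH, then rpoC2 and atpI, which encodes a membrane subunit of ATP synthase, with log2 fold changes of 0.52, 0.68 and 0.67 and larger distances of 0.241, 0.274 and 0.292. Over 4 arrays a small distance is reached by many genes, and it is given as a description.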

How the data were processed

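Total RNA of WT and vip3 seedlings was hybridised to Affymetrix ATH1 arrays, 2 per genotype. Per the labels, the authors derived the deposited signal intensity of each of 22810 probe sets with MAS5, a method that summarises perfect-match and mismatch probes. The values were on a linear scale. The study's methods name a GCRMA normalisation of scanner files, which were not used here. How cDNA synthesis was primed is not stated in the labels or the methods, and most plastid transcripts lack long poly(A) tails, so that the share of them that was labelled is unknown.

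After removal of 64 control probe sets, the log2 of the deposited intensity was fitted in limma 3.58.1 (R 4.3.3) with a variance trend, 7.5 moderated degrees of freedom and Benjamini-Hochberg adjustment over 22746 probe sets. A probe set was called at an adjusted p under 0.05. The fit was tested on simulated data. P-values rest on the spread between these arrays, each of a single pool, and on the variance shared between probe sets. They take in no variation beyond that, and the number of arrays limits the precision. Detection calls were not used here. Gene names came from the platform annotation, updated through RefSeq (TAIR10.1), with 13513 probe sets named for 1 gene, 503 for several and 8794 for none. Of several probe sets for a gene, the one with the highest mean stood for it. Members and gene lists were chosen with earlier results of these data known. Named genes were all members, their neighbours, the nuclear NDH list, the extremes of each comparison list and the 3 genes most like ndhH. Tried alternatives were a constant prior variance, robust moderation, log2 of signal plus 16, quantile normalisation, centring on the array median or on other plastid genes, removal of dim or shared-probe sets, a replicate block, the study's thresholds and leaving out each array.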

Additional observations from a re-analysis of the deposited data

Results flagged for a closer look

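The probe set listed for both copies of ndhB, which encodes another antiporter-like membrane subunit, was not used in the comparisons. It read 267.1 and 292.4 in WT and 335.5 and 314.3 in vip3, so that both vip3 arrays were above both WT arrays and the ratio of means was 1.161. In limma its log2 fold change was 0.22 (95% interval -0.08 to 0.51, adjusted p = 0.368), within the range of the 10 ndh genes.

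The array control for 25S ribosomal RNA, left out of the fit, had a ratio of means of 1.906, with both vip3 arrays above both WT arrays. The control for 5S ribosomal RNA had a ratio of 1.086, and its arrays overlapped, with 114.8 and 103.4 in WT and 101 and 135.9 in vip3.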

How the results depend on the processing

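The log2 fold change of ndhH stayed above 0 under all alternatives, and its call was lost with a constant prior variance (0.70, adjusted p = 0.212) and by the study's thresholds. With the constant prior, 0 of all probe sets were called in limma although 3798 had an unadjusted p under 0.05. By the study's thresholds 0 ndh genes and 354 of all probe sets were called. Of the ndh genes, 0 were called with a constant prior variance, 2 without the dimmest 40% and 2 with the replicate number as a block, and 1 to 3 when an array was left out, against 1 of 10. Over all probe sets, the deviations of arrays with the same replicate number correlated at -0.04, and a pairing in part of the genes was not tested. The block called 2339 probe sets against 2229. Leaving out an array gave 442 to 1332 calls over all probe sets, 0 to 3 for nuclear NDH genes and 0 to 5 for other plastid genes. Nuclear NDH calls numbered 0 with a constant prior variance and 0 after centring on other plastid genes, against 4. Other plastid calls, 4 as reported, were 0 with a constant prior variance, 2 with 16 added, 2 after plastid centring and 7 without the dimmest 40%. Plastid centring turned ndhI to -0.018, ndhD to -0.15, ndhE to -0.068 and OTP84 to -0.17. With an array left out, log2 fold changes ranged from -0.092 to 0.15 for ndhD, 0.00 to 0.58 for ndhJ, 0.22 to 0.79 for ndhK, -0.13 to 0.36 for ndhE, -0.12 to 0.13 for OTP84, -0.37 to 0.19 for CRR28, -0.46 to 0.039 for psbN, -0.18 to 0.083 for rps18, -0.18 to 0.16 for ccsA and -3.01 to 0.18 for ccb203. The causes were not tested. Signals were low for ndhF and OTP85.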

Other observations

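Mitochondrion-encoded genes, recognised by symbol, were set beside the ndh genes as transcripts of the other organelle. None of the 15 was called in limma, against 9.8% of all probe sets, and none had an unadjusted p under 0.05. Their median log2 fold change was -0.02, and 2 of them had both vip3 arrays above both WT arrays, while 2 had both below, against 25.9% and 26.3% of all probe sets. The extremes were matR with 1.61 (adjusted p = 0.424) and ccb203 with -1.42 (adjusted p = 0.549), both at low signals. Mean signals of the 15 mitochondrial probe sets ran from 4.875 to 360.8. All ndh genes except ndhF had a mean of at least 899.9. The lack of mitochondrial calls was therefore not compared at like signal, and the difference between the organelles was not tested.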
